A study of Macaca mulatta with 2 samples.

Results

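Excitatory and inhibitory synapses are held together by scaffold proteins under the postsynaptic membrane and by adhesion proteins that reach across the cleft to the axon terminal. The levels of 46 genes of this machinery were read in the prefrontal cortex of infant rhesus macaques. They cover postsynaptic density scaffolds, neurexins and their relatives, neuroligins, leucine-rich repeat (LRR) adhesion proteins, gephyrin and the auxiliary subunits and adaptors of AMPA-type glutamate receptors. They were chosen by gene symbol from the 33618 genes of the count table, all 46 were found there, and all 46 were among the 18050 genes with at least 1 CPM (reads scaled to a common library size) in CON or SEV.

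The comparison was between 1 control library (CON) and 1 sevoflurane library (SEV), both from prefrontal cortex of rhesus macaques, and both labelled as postnatal day 28. Sevoflurane, an inhaled general anesthetic used in children, was given at about 2.5 to 3% for 4 h on postnatal days 7, 14 and 28 by the labels, whereas the methods of the study place the later exposures at older ages. By those methods the infants went back to their mothers between exposures and the cortex was taken right after the last one, and how the control animals were handled is not stated. The question was how gene expression in the infant primate cortex differs after repeated sevoflurane. The design names 3 animals per group, but 1 library of each group was analysed here, so there is no replicate check, no test between conditions and no p-value. Every ratio compares these 2 libraries, and its 95% interval covers counting error only.

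Reads on genes numbered 16960880 in CON and 9839105 in SEV. Reads were scaled by edgeR's TMM factors and given as CPM, and each log2 ratio is sevoflurane over control with a prior count of 2. The 7 Y-linked genes listed held 3 CON reads and 4308 SEV reads, so sex, animal and exposure cannot be told apart. In bulk tissue, fewer cells of a type and less RNA per cell cannot be told apart either.

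At a synapse, the membrane-associated guanylate kinases (MAGUKs, the DLG genes) bind receptors and adhesion proteins, the SAPAP proteins (DLGAP genes) bind the MAGUKs, the SHANK proteins bind the SAPAPs, and the Homer proteins tie SHANKs to metabotropic glutamate receptors and calcium stores. On the surface, presynaptic neurexins bind postsynaptic neuroligins and LRR transmembrane proteins. These pairs help to set where synapses form and whether they carry glutamate or GABA receptors, and in infant primate cortex they are in use while synapses are still being added in large numbers.

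The 46 genes were spread less widely between the libraries than the tested genes as a whole, and they leaned upwards. Their log2 ratios ran from -0.58 (GRIP1) to 1.08 (DLGAP3), with a median of 0.12 against -0.0048 over all 18050 genes. The interquartile range of the members lay between -0.08 and 0.35, whereas that of all tested genes lay between -0.34 and 0.37. The median size of the log2 ratio, whatever its sign, was 0.22 for the members and 0.35 for all tested genes, which include many with few reads and therefore noisier ratios. Together the 46 genes took 0.832% of the control reads and 0.986% of the sevoflurane reads.

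Only DLGAP3 was at least 2-fold higher with an interval that excluded equal expression, or 2.17% of the members beside 7.56% of all tested genes. No member was at least 2-fold lower, beside 5.47% of all tested genes. At 1.5-fold, 4 members were higher (DLGAP3, IGSF9B, HOMER2 and SHANK3), which is 8.7% of them beside 14.4% of tested genes, and 0 were lower beside 11.9%. Counting any fold, 21 members (45.7%) had an interval above equal expression and 9 (19.6%) an interval below it, beside 28.4% and 28.1% of all tested genes. The remaining 16 had intervals that included equal expression. Deep genes have narrow intervals, and among the 13569 genes with at least 5 CPM the shares above and below were 30.3% and 32.8%, against 21 and 9 of the 45 members that reach that level. Scaling to the summed reads of 12 neuron markers moved the median of all genes by 0.28. MAP2 held the most reads of these markers (58204 in CON and 26597 in SEV), so it weighed most in that scaling. Of the 12 markers, 10 had ratios below 0 and 2 above 0. Under that scaling 38 members (82.6%) lay above and 2 (4.35%) below, beside 48.9% and 12.9% of all tested genes. Of the 9 lower members, 6 changed sign with the shift.

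**Figure D1:**
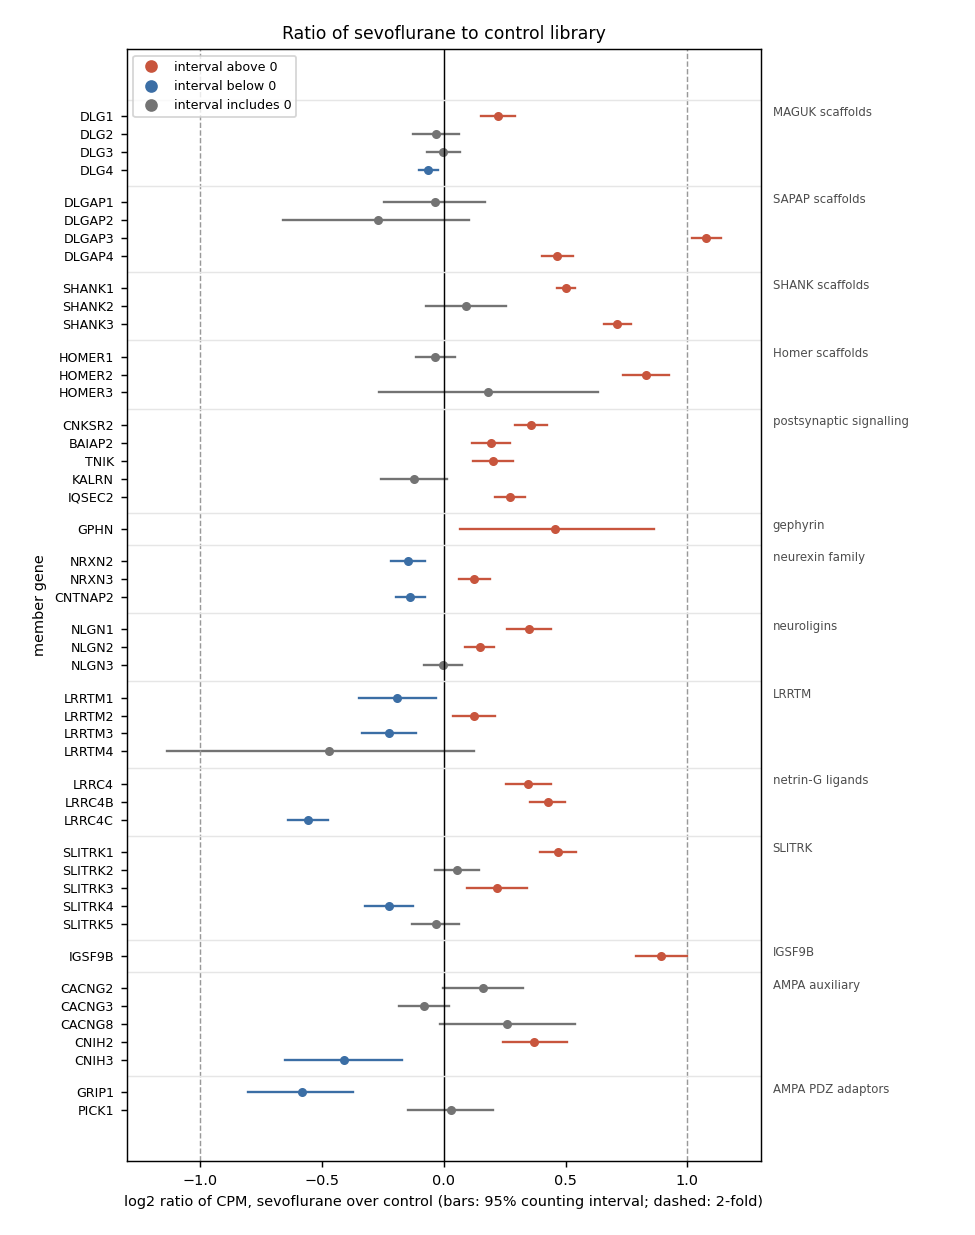
Log2 ratio of CPM, sevoflurane over control library (horizontal axis), for each of the 46 genes (vertical axis) in its role group, with exact 95% counting intervals as bars, no change as the solid line and 2-fold as dashed lines. Only DLGAP3, at 1.08, has its point beyond the 2-fold line, and GRIP1 at -0.58 and LRRC4C at -0.56 are the lowest.

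Among the MAGUKs, DLG2, DLG3 and DLG4 were close to equal and DLG1 was slightly higher. DLG4, which encodes PSD-95, the main scaffold of excitatory synapses, had 14916 control and 8437 sevoflurane reads, or 888 and 850 CPM. Its log2 ratio was -0.06 (95% interval -0.10 to -0.02), which became 0.22 when scaled to neuron markers. DLG1, whose product takes part in the transport of glutamate receptors, had 246 and 287 CPM (0.22, 0.15 to 0.29). Of the 4 MAGUK genes, DLG1 alone had an interval above equal expression. DLG2 had 153 and 150 CPM (-0.03, -0.12 to 0.06). The X-linked DLG3 had 4848 and 2862 reads, or 288 CPM in each library (-0.0015, -0.07 to 0.07). The summed level of the 4 genes was 1576 CPM in CON and 1575 CPM in SEV.

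Of the SAPAP genes, one layer deeper in the postsynaptic density, 2 were higher and 2 had intervals that included equal expression. DLGAP3, a SAPAP known above all from striatal and cortical excitatory synapses, had 4101 control reads and 5114 sevoflurane reads, although the sevoflurane library was the shallower. Its levels were 244 and 515 CPM, and its log2 ratio was 1.08 (1.02 to 1.14), higher than that of 93.0% of the tested genes. DLGAP4 had 4515 and 3686 reads, or 269 and 371 CPM (0.47, 0.40 to 0.53). DLGAP1 and DLGAP2 did not follow. DLGAP1 had 533 and 307 reads (-0.04, -0.24 to 0.17). DLGAP2 had 178 and 87 reads (-0.27, -0.66 to 0.10), and its interval is the widest of the 4.

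The SHANK genes encode the large scaffolds that join the SAPAP layer to Homer and the actin cytoskeleton. All 3 had ratios above 0, and the intervals of SHANK1 and SHANK3 excluded equal expression. SHANK3 had 5182 control and 5018 sevoflurane reads, or 308 and 505 CPM (0.71, 0.66 to 0.77). SHANK1 had 13243 and 11076 reads, or 788 and 1115 CPM (0.50, 0.46 to 0.54). The counts of both genes are large and their intervals narrow. SHANK2 had 783 and 493 reads, or 46.6 and 49.6 CPM (0.09, -0.07 to 0.26). Its interval included equal expression, and its upper limit lay below the intervals of SHANK1 and SHANK3.

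Among the Homer genes, HOMER2 stood apart from HOMER1. HOMER2 had 1771 control and 1862 sevoflurane reads, or 105 and 187 CPM (0.83, 0.74 to 0.93). HOMER1 had 3460 and 1997 reads, or 206 and 201 CPM (-0.03, -0.11 to 0.05). The short form of HOMER1 is known as an activity-induced transcript that competes with the long scaffold forms, and counts per gene cannot separate them. For the 9 measured immediate early genes, which neuronal activity induces, the median log2 ratio was -2.22, and 8 of the 9 had intervals below equal expression, whereas the gene-level value of HOMER1 was near 0. HOMER3, better known from cerebellum, had 107 and 72 reads (0.18, -0.26 to 0.63).

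Of the 5 genes of postsynaptic signalling enzymes and adaptors, 4 had intervals above equal expression, beside 28.4% of all tested genes. CNKSR2, an X-linked Ras-pathway scaffold that binds MAGUKs, had 259 and 332 CPM (0.36, 0.29 to 0.43). IQSEC2, an X-linked exchange factor for ARF GTPases, had 313 and 378 CPM (0.27, 0.21 to 0.33). BAIAP2, an adaptor between membranes and actin, and the kinase gene TNIK had log2 ratios of 0.19 and 0.20. KALRN, which encodes a signalling protein of dendritic spines, had 1273 and 692 reads (-0.12, -0.26 to 0.01), the only value of the 5 below 0.

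**Figure D2:**
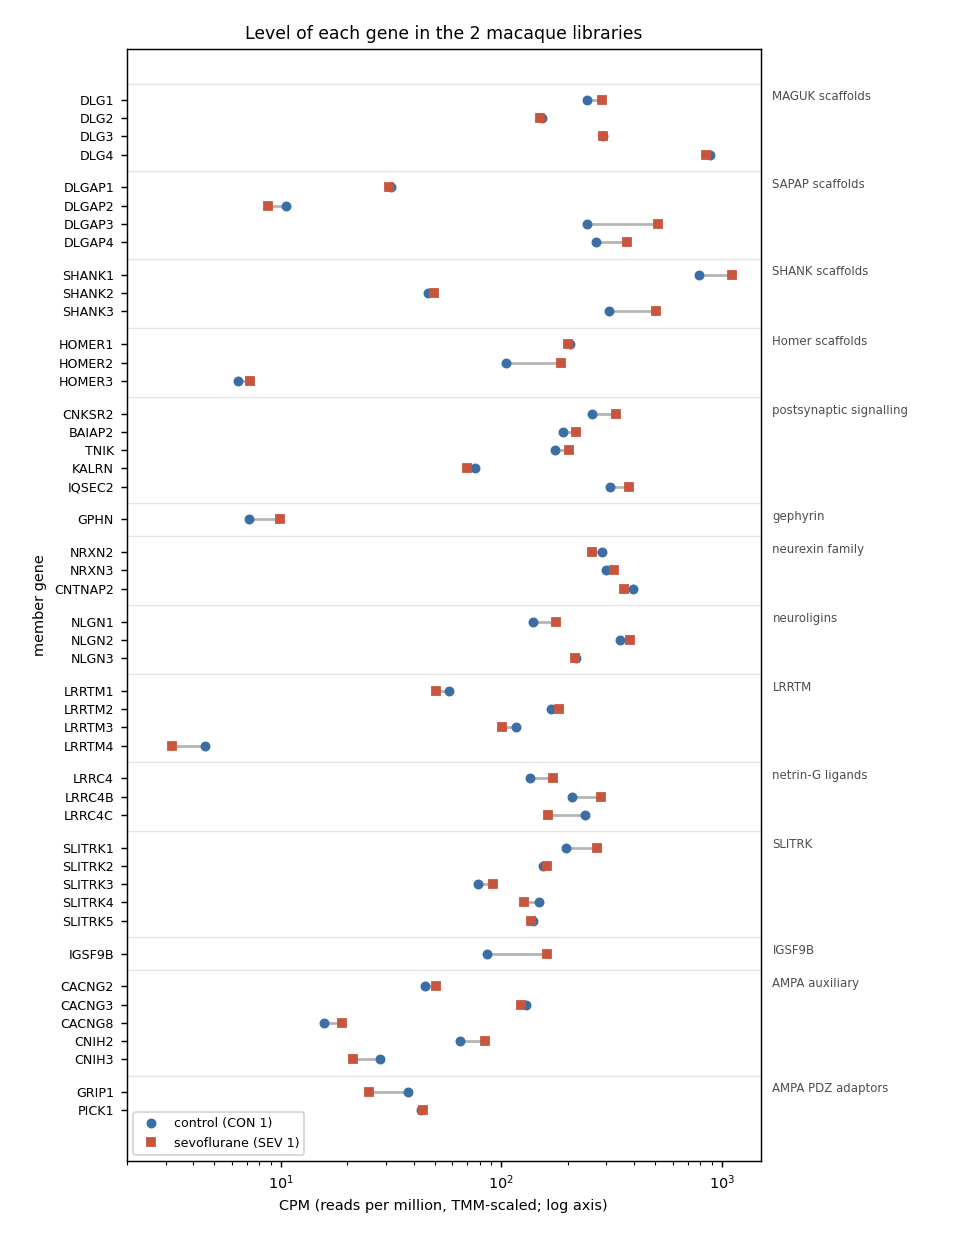
Level of each of the 46 genes in CPM (horizontal log axis) in the control library (circle) and the sevoflurane library (square), joined by a grey bar, in the same role groups. The bars are longest for DLGAP3 (244 and 515 CPM), IGSF9B (86.3 and 161 CPM), HOMER2 (105 and 187 CPM) and SHANK3 (308 and 505 CPM), and the points of DLG2, DLG3 and DLG4 nearly coincide.

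Members known from inhibitory synapses were all higher in the sevoflurane library. They are gephyrin, NLGN2, SLITRK3 and IGSF9B, and the intervals of all 4 excluded equal expression, beside 28.4% of all tested genes with an interval above it. IGSF9B, an immunoglobulin-family adhesion protein of inhibitory synapses, had 1451 control and 1594 sevoflurane reads, or 86.3 and 161 CPM (0.89, 0.79 to 1.00). It had the second highest ratio of the 46 genes. GPHN, which encodes gephyrin, the scaffold that gathers GABA-A and glycine receptors, had 120 and 98 reads (0.46, 0.07 to 0.86), so its size is poorly fixed. NLGN2, the neuroligin of inhibitory synapses, had 347 and 384 CPM (0.15, 0.09 to 0.21). SLITRK3, whose product promotes inhibitory contacts, had 78.8 and 91.7 CPM (0.22, 0.10 to 0.34). With 4 genes and 1 library per group, this is a description, and the difference from the excitatory members was not tested.

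In the neurexin family, the differences were small and in both directions. NRXN3, a presynaptic hub for postsynaptic partners, had 4993 and 3219 reads, or 297 and 324 CPM (0.13, 0.06 to 0.19). NRXN2 had 4819 and 2575 reads, or 287 and 259 CPM (-0.15, -0.21 to -0.08). CNTNAP2, a neurexin relative that clusters potassium channels along the axon, had 6646 and 3574 reads, or 395 and 360 CPM (-0.14, -0.20 to -0.08). The values of NRXN2 and CNTNAP2 turned to 0.14 and 0.15 when scaled to neuron markers.

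The 3 neuroligins among the members, postsynaptic partners of neurexins, were equal or slightly higher. NLGN1, the neuroligin of excitatory synapses, had 2332 and 1756 reads, or 139 and 177 CPM (0.35, 0.26 to 0.44). The X-linked NLGN3 had 217 CPM in both libraries (-0.0029, -0.08 to 0.07). NLGN2, given above, lay between them. NLGN4X, a neuroligin outside the members that was picked after its values were seen, went the other way. It had 3050 and 1437 reads, or 182 and 145 CPM (-0.33, -0.42 to -0.24).

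The LRRTM genes encode LRR proteins of excitatory synapses that bind neurexins. LRRTM2 had 168 and 183 CPM (0.12, 0.04 to 0.21), and the other members had ratios below 0. LRRTM1 had 971 and 503 reads (-0.19, -0.35 to -0.03). LRRTM3 had 1969 and 996 reads (-0.22, -0.34 to -0.11). Under the neuron marker scaling both turned positive, at 0.09 and 0.06. LRRTM4 had the fewest reads of all 46 genes, 76 and 32, and its log2 ratio of -0.47 had an interval from -1.13 to 0.12.

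The netrin-G ligand genes diverged most clearly among the adhesion families. Their products bind axonal netrin-G proteins or receptor phosphatases and each marks its own inputs on the dendrite. LRRC4C had 4041 control and 1624 sevoflurane reads, or 240 and 164 CPM (-0.56, -0.64 to -0.47), and it stayed below 0 under all scalings run. LRRC4 had 2261 and 1700 reads, or 135 and 171 CPM (0.35, 0.26 to 0.44). LRRC4B had 3525 and 2802 reads, or 210 and 282 CPM (0.43, 0.36 to 0.50). The ratio of LRRC4C thus lay opposite to those of its relatives, and its interval overlapped neither of theirs.

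The SLITRK genes, LRR proteins that bind receptor phosphatases of the axon, also ran in both directions. SLITRK1 had 197 and 272 CPM (0.47, 0.39 to 0.54). The X-linked SLITRK4 had 149 and 127 CPM (-0.22, -0.32 to -0.13), which turned to 0.06 under the neuron marker scaling. SLITRK2, also X-linked, had 155 and 161 CPM (0.05, -0.04 to 0.14). SLITRK5 had 140 and 137 CPM (-0.03, -0.13 to 0.06). Beside SLITRK3, SLITRK1 was therefore the only other member of the 5 with an interval above equal expression.

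Of the members that encode AMPA receptor partners, the cornichons and the PDZ-domain adaptor GRIP1 showed the larger differences. CNIH2 and CNIH3 encode cornichons, which slow the closing of the receptor and help its export. CNIH2 had 1096 and 839 reads, or 65.2 and 84.5 CPM (0.37, 0.24 to 0.50). CNIH3 had 472 and 210 reads, or 28.1 and 21.1 CPM (-0.41, -0.65 to -0.17). The pair thus lay on opposite sides of equal expression, although under the neuron marker scaling the interval of CNIH3 was not among the 2 still below it. GRIP1, an adaptor that binds the receptor tail and motor proteins, had 634 and 250 reads, or 37.7 and 25.2 CPM. Its log2 ratio of -0.58 (-0.80 to -0.37) was the lowest of the 46 genes, just short of the 1.5-fold threshold. PICK1, an adaptor that binds the same tail and takes part in receptor internalization, had 725 and 437 reads (0.03, -0.15 to 0.20).

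The transmembrane AMPA receptor regulatory proteins (TARPs) carry the receptors to the synapse and hold them on PSD-95. The TARP genes among the members had intervals that included equal expression. Outside the members, CACNG7 (0.69, 0.57 to 0.82) and CACNG4 (0.19, 0.03 to 0.34), picked after their values were seen, had intervals above it. That of CACNG5 (0.15, -0.38 to 0.68) included it. CACNG2, which encodes stargazin, had 759 and 502 reads (0.16, -0.0031 to 0.33). CACNG3 had 2183 and 1221 reads (-0.08, -0.18 to 0.02). CACNG8 had 265 and 188 reads (0.26, -0.01 to 0.54). The lower limits of CACNG2 and CACNG8 lay just under 0, and that of CACNG2 moved above 0 with the size factors of DESeq2. Scaled to neuron markers, the log2 ratios of CACNG2, CACNG3 and CACNG8 were 0.44, 0.20 and 0.54.

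Because scaling moves all genes of a library alike, members of a family were also compared with each other directly. The sevoflurane-to-control ratio of one gene was divided by that of its relative, with an exact conditional 95% interval, which no scaling changes. Of 48 such pairs in 12 families, 35 had an interval that excluded 1, and 12 of these were at least 1.5 apart. All pairs were ordered so that the value is above 1, and no correction for their number was made. The same share was not computed for pairs of genes outside the members. These counts therefore cannot show a divergence particular to these families. Among all tested genes, 28.4% had intervals above equal expression and 28.1% below it. DLGAP3 over DLGAP2 was the widest, at 2.55 (1.96 to 3.35), and DLGAP3 over DLGAP4 was 1.53 (1.44 to 1.62). LRRC4B over LRRC4C was 1.98 (1.83 to 2.14), while LRRC4B over LRRC4 was 1.06 (0.975 to 1.15). These 3 genes therefore held a near-equal pair and a lower LRRC4C. HOMER2 over HOMER1 was 1.82 (1.67 to 1.99). CNIH2 over CNIH3 was 1.72 (1.42 to 2.08), SLITRK1 over SLITRK4 was 1.62 (1.48 to 1.76), and PICK1 over GRIP1 was 1.53 (1.26 to 1.85). SHANK3 over SHANK2 was 1.54 (1.36 to 1.74). The narrowest families were the neurexin family, with NRXN3 over NRXN2 at 1.21 (1.13 to 1.29), and the MAGUKs, with DLG1 over DLG4 at 1.22 (1.15 to 1.29). DLG2, DLG3 and DLG4 differed from each other by factors of at most 1.04, with all 3 intervals including 1.

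**Figure D3:**
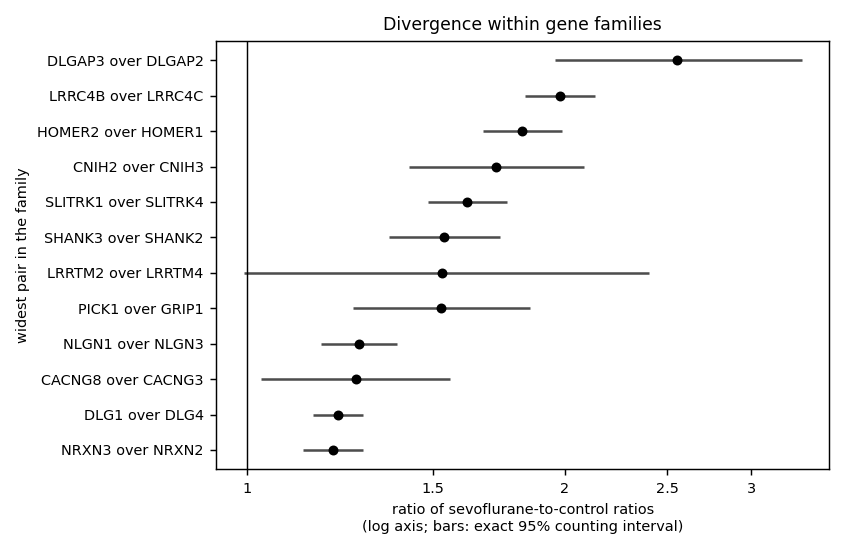
For each of 12 families, the pair of members that lay farthest apart (vertical axis), with the ratio of their sevoflurane-to-control ratios on a log axis (point) and its exact 95% counting interval (bar). The values run from 1.21 for NRXN3 over NRXN2 to 2.55 for DLGAP3 over DLGAP2, and only the bar of LRRTM2 over LRRTM4 reaches 1.

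Sorted by role, the 14 scaffolds of excitatory synapses had a median log2 ratio of 0.14, with 6 intervals above and 1 below equal expression. The 19 adhesion genes had a median of 0.05, with 9 above and 6 below. The 7 AMPA receptor partners had a median of 0.03, with 1 above and 2 below. Over all tested genes 28.4% lay above and 28.1% below, and with so few genes in a role the shares below in the adhesion genes and receptor partners are near that background. The summed level of the 14 scaffolds was 3591 CPM in CON and 4567 CPM in SEV, and most of the gain lay in SHANK1, SHANK3, DLGAP3 and DLGAP4. The 6 X-linked members had a median of 0.03 beside -0.09 over all 563 X-linked genes tested, and the 40 others a median of 0.14.

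**Figure D4:**
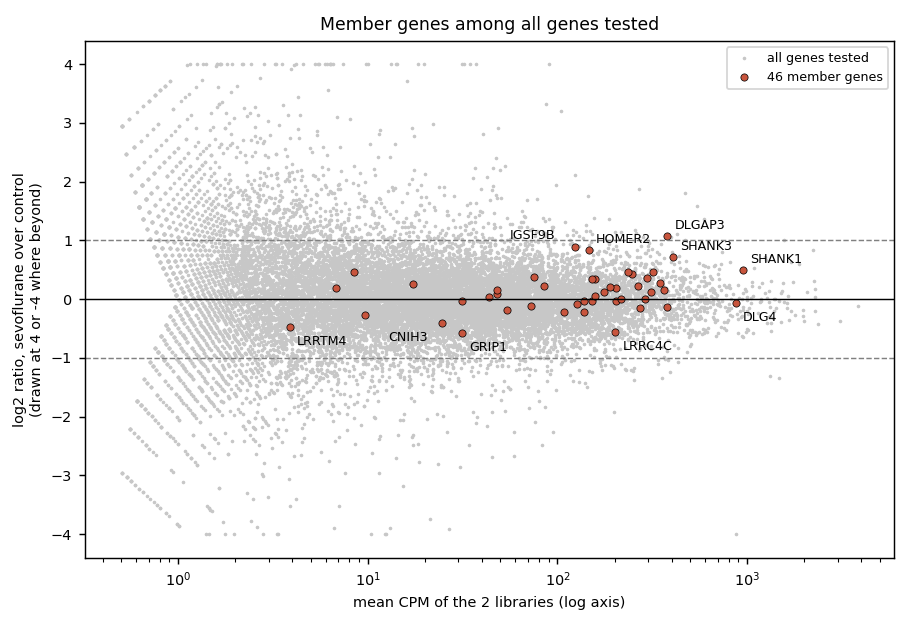
Log2 ratio, sevoflurane over control (vertical axis, drawn at 4 or -4 where beyond), against the mean CPM of both libraries (log axis) for the 18050 tested genes (grey) and the 46 members (red). Except for DLGAP3 at 1.08, the members sit between the dashed 2-fold lines, and grey points spread most at low CPM.

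Markers of the main cell types differed between the libraries as well. Of 12 neuron markers, 10 had intervals below equal expression and 1 above, with a median of -0.32, and their summed level was 9610 CPM in CON and 7909 CPM in SEV. The upward lean of the members was thus not shared by the neuron markers. All 8 oligodendrocyte markers were lower (median -1.26, summed level 4193 and 2039 CPM), as were all 4 of the precursor markers (median -0.35, 304 and 237 CPM) and 6 of the 8 astrocyte markers (median -0.48, 6618 and 4604 CPM). Of the 8 microglia markers 4 were higher and 1 lower (median 0.32, 233 and 258 CPM), and of the 4 endothelial markers 1 was lower (median 0.06, 131 and 128 CPM). Of the 5 meninges and choroid plexus markers 3 were higher (median 0.60, 203 and 347 CPM). None of these markers was at 0 in both libraries. The part of the tissue's makeup in the members' ratios was not tested.

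The wider synaptic list held 107 further genes of the same kinds, of which 103 were tested. Their median log2 ratio was 0.15, with 44 intervals above and 31 below equal expression, and 4 genes passed 2-fold upwards and 5 downwards. As shares of the list these are 42.7% above and 30.1% below beside 28.4% and 28.1% of all tested genes, and 3.88% and 4.85% past 2-fold beside 7.56% and 5.47%, so genes past 2-fold were no more frequent in the list than among all genes. Higher in the sevoflurane library were MDGA1, an inhibitor of the neurexin and neuroligin contact (105 and 270 CPM, 1.37), CADM2 (27.0 and 66.1 CPM, 1.29), IGSF9, the closest relative of IGSF9B (47 and 63 reads, 1.14), and SYNDIG1L (135 and 164 reads, 1.03). The lower ones included 3 of the 6 listed genes for secreted proteins of the C1q family, of which cerebellins bind neurexins. CBLN2 had 2640 and 325 reads (-2.26, -2.43 to -2.10). CBLN1 had 325 and 37 reads (-2.33, -2.91 to -1.88). C1QL3 had 1715 and 158 reads (-2.67, -2.93 to -2.45). The other members of the family, named after their values were seen, did not share this direction, with log2 ratios of 0.45 for C1QL2, 0.21 for CBLN4 and 0.18 for C1QL1, of which the interval of C1QL2 (0.20 to 0.71) lay above equal expression. The differences of CBLN1, CBLN2 and C1QL3 were larger than that of any of the 46 members. The remaining genes were BAIAP3, with 690 and 57 reads (-2.81), and SLITRK6, with 56 reads and 1 read and an upper limit of -2.51. The SLITRK relative was thus below the 3-read floor in SEV, unlike SLITRK1 to SLITRK5.

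**Figure D5:**
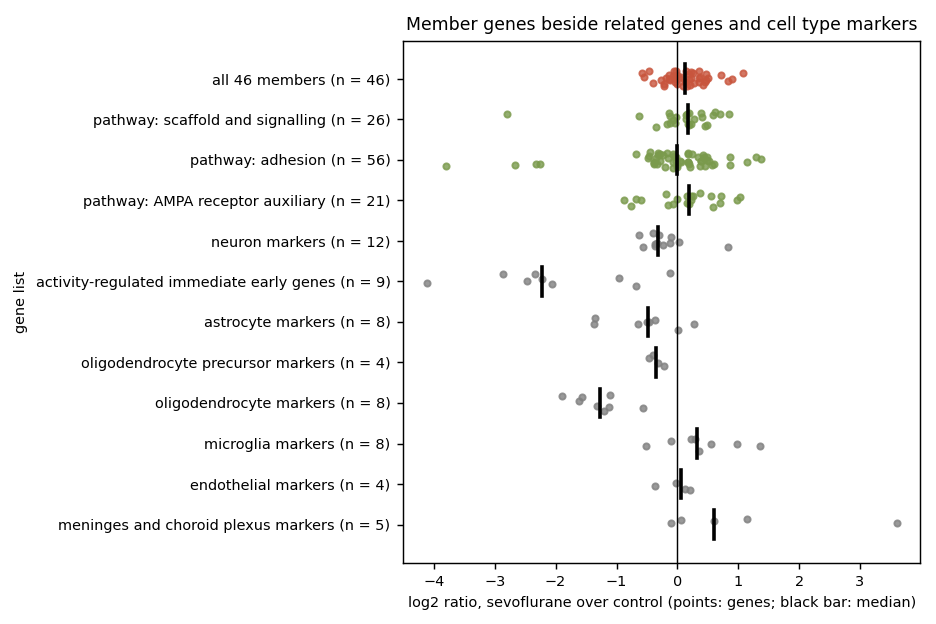
Log2 ratio, sevoflurane over control (horizontal axis), of the 46 members (red), of 3 lists of related synaptic genes (green) and of 8 lists of cell type markers and activity-regulated genes (grey), with 1 point per gene and the median as a black bar. The members lie between -0.58 and 1.08 around a median of 0.12, the neuron markers have a median of -0.32 and the immediate early genes one of -2.22.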

How the data were processed

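The deposited table holds raw, unnormalized counts of reads for each gene from 1 control and 1 sevoflurane library. The submitters' processing notes name HISAT2 2.0.4. The counting tool, strand setting, genome build and annotation are not given in the sources used here, so overlapping and antisense genes could not be separated and no coordinates are given. Members were matched by symbol, and X linkage came from the RefSeq table of the MMU8v2.0 macaque assembly, in which all 46 symbols were found. No sequence was used here, so GC content and transcript length were not checked and levels were not compared between genes.

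TMM factors from edgeR 4.0.16 (R 4.3.3) were computed on genes that reached 1 CPM in CON or SEV (0.991 and 1.01). Log2 ratios used a prior count of 2. Intervals at 95% came from exact Clopper-Pearson limits of the sevoflurane share of reads, and from the exact conditional odds ratio for pairs within a family (scipy 1.17.1, numpy 2.4.6, pandas 2.3.3, Python 3.11.15, matplotlib 3.10.9). No molecular identifiers are named, so intervals cover counting error only. A gene counted as higher or lower at 2-fold when its interval also excluded equal expression. The quasi-likelihood test of edgeR could not be fitted with 1 library per group. The procedure was tested on simulated data. These were drawn with counting error only, so that test cannot speak to variation between animals or tissue samples.

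The members, lists, role groups and thresholds were chosen with earlier results of these data known. All members were to be accounted for, with values in sentences for those at least 1.5-fold apart, the 5 highest and 5 lowest, and examples of each role. Genes of the wider synaptic list were named when at least 2-fold apart, and others of that list after their values were seen. The alternatives tried were scaling by library totals, upper quartiles, neuron marker reads or size factors of DESeq2 1.42.0, a lower prior count (0.5), a looser filter (1 read) and a stricter one (5 CPM), a sampled-down control library, a stricter interval, and thresholds of 1.5-fold and 4-fold.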

Additional observations from a re-analysis of the deposited data

How the results depend on the processing

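Under size factors from DESeq2, library totals, upper quartiles, a lower prior count of 0.5, the looser and stricter filters (1 read, 5 CPM), a stricter interval and the control library sampled down, every member tested stayed inside its counting interval (LRRTM4 falls below the filter of 5 CPM), and the median of the members ran from 0.10 to 0.15. Scaling to neuron marker reads moved all genes by 0.28 and with them the members, to a median of 0.41, 3 members at least 2-fold higher, 38 with an interval above and 2 with an interval below equal expression (48.9% and 12.9% of all genes). Relative to the median of all genes, that of the members was 0.13 in both cases. Of the members with a main interval below equal expression, CNTNAP2 (0.15), DLG4 (0.22), LRRTM1 (0.0908), LRRTM3 (0.0567), NRXN2 (0.14) and SLITRK4 (0.056) changed sign under this scaling. Members whose main interval included equal expression also turned positive, such as HOMER1 (from -0.03 to 0.25). These changes of sign follow from the shift itself. A threshold of 1.5-fold gave 4 higher members and 4-fold gave 0, by construction. Leaving out the 6 X-linked genes, chosen after seeing the data, gave a median of 0.14, with 19 intervals above and 8 below.

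No paired analysis was possible because CON and SEV hold 1 library each, which also leaves no replicate to omit. Depth limits LRRTM4, HOMER3, GPHN and DLGAP2 most.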

Other observations

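The neuron marker list was not uniform. RBFOX3, which encodes the neuronal nuclear protein NeuN and was picked once its values were known, had 2478 control and 2611 sevoflurane reads (0.83, 0.75 to 0.91), while SYT1 had 25532 and 11445 reads (-0.40, -0.43 to -0.37) and MAP2 58204 and 26597 reads (-0.37, -0.39 to -0.35).

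Among the related synaptic genes, SYNPO, which encodes the spine protein synaptopodin and was also picked afterwards, had 3779 control and 4035 sevoflurane reads (0.85, 0.79 to 0.92). The AMPA receptor partner PRRT1 had 997 and 1161 reads (0.98, 0.86 to 1.10). The cornichon CNIH1 had 1277 and 468 reads (-0.69, -0.85 to -0.54), on the same side of equal expression as CNIH3 and opposite to CNIH2.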
